A study of Homo sapiens with 12 samples.

Results

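The response of Colo320DM control clones to 5-aza-2'-deoxycytidine (5-aza-dC) was described from 6 of the 12 expression arrays of the study. Colo320DM is a human colorectal cancer cell line. The 6 arrays were chosen by their labels as the 3 treated and the 3 mock arrays of control clones 1 to 3, and arrays of the same number came from the same clone. Every clone had been transfected with a plasmid that expresses EmGFP and a negative control microRNA, had been selected with G418 at 1.0 mg/ml and was grown from an isolated GFP-positive colony, so that each is 1 clone of the line. The treated arrays had received 5-aza-dC at 1 µM for 72 h with drug and medium replaced every 24 h, whereas the mock arrays had received no 5-aza-dC. The other 6 arrays of the study were mock and treated TET1 knockdown clones.

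5-aza-dC is a cytidine analogue that is built into DNA during replication and traps DNA methyltransferases, so that the methylation of CpG dinucleotides is lost as cells divide. Methylation of a CpG-rich promoter is associated with a silent gene. Genes of the germline, among them the cancer-testis antigens of the X chromosome, are methylated and silent in most somatic cells and are known to be induced by DNA methyltransferase inhibitors. Interferon response and antigen presentation genes, and genes that colorectal cancers silence by methylation, are other known responders.

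Each array held 50599 distinct probes, and between 45.66% and 50.41% of them were well above background on the 6 arrays. Values are the log2 of the processed signal minus that of the 75th percentile of the array, so a level of 0 equals that percentile and a difference of 1 is a doubling. Colorectal epithelial markers gave a mixed picture. CDX2 lay between 7.67 and 8.65 and KRT18 between 4.11 and 4.25 on the 6 arrays, and KRT8, CDX1, KRT20 and CDH17 were also detected on all of them. EPCAM was detected on 2 of 3 mock arrays and KRT19 on none. In contrast, CDH1 and VIL1 were not well above background on any of the 6. Of the markers of other cells, COL1A2, DCN and PECAM1 were not well above background on any array, CD14 (-3.01 to -2.56) and the leukocyte gene PTPRC (-0.17 to 0.56) were detected on all 6, and VIM was high at 7.35 to 8.50. CD3E was detected on 2 mock arrays and 1 treated array. COL1A1, a collagen of stromal cells, was detected on all 6 arrays and was higher after treatment (1.90, adjusted p = 0.0191, and 0.135 with slide as a block). The part of these markers in the results was not tested. Mock clones 1 and 2 lay on slide 1, and mock clone 3 and all 3 treated arrays on slide 2. Across tested probes mock clone 3 correlated at 0.948 and 0.953 with the other mock arrays and at 0.939 to 0.957 with the treated arrays, and mock clones 1 and 2 correlated with each other at 0.982. Therefore the main results are given also with slide as a block, a fit that sets the treated arrays against mock clone 3.

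Promoters of genes that stand at the head of the comparison are shown first, because CpG dinucleotides carry the methylation that the inhibitor removes. Each run is 300 bases from RefSeq (GRCh38.p14), all on the plus strand, written 5′ to 3′ with every CpG in capitals. RHOXF2, GAGE7 and HSPA1A were among the most raised genes, PAGE2B was the most raised of those detected on all 6 arrays, and EGR1 was the most lowered. They cover chrX:120158363-120158662, chrX:49560592-49560891, chr6:31815293-31815592, chrX:55074780-55075079 and chr5:138465229-138465528. The GAGE7 probe is listed in the current annotation under GAGE12F, one of many near-identical GAGE copies, so that its run is that of GAGE12F.
RHOXF2: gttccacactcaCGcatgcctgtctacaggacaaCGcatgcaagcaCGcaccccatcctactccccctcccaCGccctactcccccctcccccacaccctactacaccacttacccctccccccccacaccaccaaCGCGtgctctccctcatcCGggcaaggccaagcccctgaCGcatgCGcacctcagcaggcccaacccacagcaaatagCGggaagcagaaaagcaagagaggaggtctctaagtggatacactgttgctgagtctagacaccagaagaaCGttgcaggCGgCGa
GAGE7: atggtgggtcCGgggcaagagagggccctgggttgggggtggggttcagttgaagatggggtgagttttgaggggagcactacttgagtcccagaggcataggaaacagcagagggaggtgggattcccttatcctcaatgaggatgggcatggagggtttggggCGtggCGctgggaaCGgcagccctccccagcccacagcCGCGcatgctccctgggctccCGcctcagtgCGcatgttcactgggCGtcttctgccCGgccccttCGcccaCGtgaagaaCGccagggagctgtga
HSPA1A: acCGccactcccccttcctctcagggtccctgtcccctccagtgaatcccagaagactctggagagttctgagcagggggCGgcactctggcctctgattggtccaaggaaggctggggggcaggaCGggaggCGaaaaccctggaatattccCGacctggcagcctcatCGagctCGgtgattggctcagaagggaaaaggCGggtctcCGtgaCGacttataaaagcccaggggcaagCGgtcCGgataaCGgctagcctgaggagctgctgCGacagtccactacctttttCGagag
PAGE2B: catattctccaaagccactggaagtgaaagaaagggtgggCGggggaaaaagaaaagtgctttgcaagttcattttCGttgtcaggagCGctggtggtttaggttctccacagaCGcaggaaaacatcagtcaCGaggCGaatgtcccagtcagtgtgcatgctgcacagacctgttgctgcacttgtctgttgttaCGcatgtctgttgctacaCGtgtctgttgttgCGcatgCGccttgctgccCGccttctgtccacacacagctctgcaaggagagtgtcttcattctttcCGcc
EGR1: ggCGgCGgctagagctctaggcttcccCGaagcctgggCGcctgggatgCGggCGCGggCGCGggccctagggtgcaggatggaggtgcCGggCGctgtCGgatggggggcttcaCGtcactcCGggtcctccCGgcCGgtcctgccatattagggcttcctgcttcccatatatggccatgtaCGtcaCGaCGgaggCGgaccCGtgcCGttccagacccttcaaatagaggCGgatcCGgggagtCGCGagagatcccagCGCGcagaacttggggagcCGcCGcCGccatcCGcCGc
The RHOXF2 and GAGE12F promoters held 13 CpGs each, HSPA1A 15 and PAGE2B 12, against 33 in EGR1. The ratio of observed to expected CpG was 0.54, 0.44, 0.55 and 0.60 in the 4 raised genes and 0.92 in EGR1.

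Tests were run on probes with a signal well above background on 3 or more of the 6 arrays, and a probe was called at an adjusted p under 0.05 with limma. More probes were raised than lowered. Of 24631 probes tested, 941 were higher after 5-aza-dC, which is 3.82%, and 368 were lower, which is 1.49%. The raised probes carried 692 gene symbols and the lowered probes 245. The 2 groups of arrays did not overlap at 33.0% of all probes tested, and at every called probe they did not overlap. The direction split depended on the scale. It was 896 higher and 734 lower after quantile normalization, and 923 higher and 2684 lower when arrays were centred on their medians. Centring on the medians took the median change over all tested probes to -0.295, against -0.04. Blocking on slide, 403 probes were higher (1.64%) and 74 lower (0.3%), and these included 329 of the raised and 35 of the lowered probes. In bulk RNA, fewer cells of a kind and less RNA per cell cannot be told apart.

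**Figure D1:**
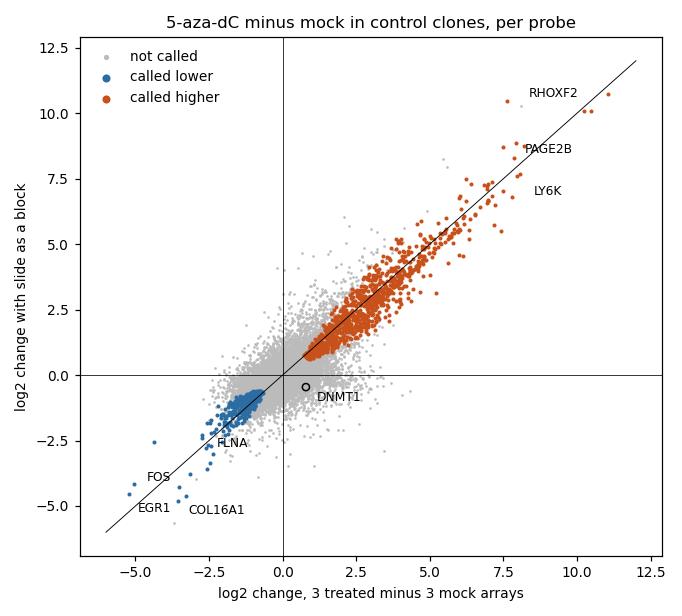
Log2 change of each tested probe after 5-aza-dC in the 3 treated minus the 3 mock arrays (horizontal) and with slide as a block (vertical), with the line of equality and probes called higher or lower in colour. RHOXF2 at 11.05 and 10.72 and EGR1 at -5.22 and -4.54 lie near the line, whereas DNMT1 (open circle, not called) is at 0.79 and -0.46.

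The raised and lowered sides differed in where they started. Of the 941 raised probes, 415 were not well above background on any mock array, 163 on some and 363 on all 3. For those that started undetected the measured change depends on the floor of the array, and only a bound can be given. In the bound the treated mean is divided by a mock mean in which each array gives its detection floor (its dimmest signal counted as well above background), or the signal of the probe itself if that was brighter. The lowered probes mostly remained detectable, as 264 of 368 were well above background on all treated arrays and 58 on none. The median log2 change was 2.71 for raised and -1.17 for lowered probes, and 2.49 and -1.0 with slide as a block. Among probes detected on all 6 arrays, which the detection rule does not favour in one direction, 1.74% were called higher and 1.27% lower, with medians of 1.64 and -1.11. In the clone 3 pair, where both arrays shared a clone and a slide, the medians were 2.52 and -0.98 over all raised and all lowered probes. These 2 arrays had helped to call the probes, and the groups did not overlap there, so the direction in the pair was fixed in advance.

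The most raised genes with symbols were RHOXF2, GAGE7, LY6K, HSPA1A, MAGEB2, PAGE2B, GTSF1, XAGE1A, PAGE2 and SP5. RHOXF2 is an X-linked homeobox gene of the germline (probe at hg19 chromosome X, 119297862 to 119297921). Its level was -6.99, -7.12 and -6.57 in mock clones 1 to 3 and 5.05, 3.43 and 3.99 in the same clones after 5-aza-dC. Thus it went from undetected to far above the 75th percentile in all 3 clones, at least 467-fold (adjusted p = 0.000387, and 0.00874 with slide as a block). LY6K, a GPI-anchored protein of the testis, lay between -7.14 and -6.52 in mock clones and at 1.77, 0.59 and 1.12 after treatment, a rise of at least 58.5-fold (adjusted p = 0.000387). HSPA1A, the inducible HSP70 chaperone, lay between -7.07 and -6.45 in mock clones and at 1.60, 0.70 and 1.15 after treatment, at least 58.0-fold higher (adjusted p = 0.000387). HSPA1A has a near-identical copy, and a probe may read both. GTSF1, a germline factor of the piRNA pathway, rose at least 72.1-fold (adjusted p = 0.00326), and SP5, a transcription factor and Wnt target, at least 42.0-fold (adjusted p = 0.000387). For these 5 genes no mock array was well above background and all 3 treated arrays were. GAGE7, MAGEB2, XAGE1A and PAGE2 were detected on 1 or 2 mock arrays, so that their log2 changes of 8.20, 7.92, 7.63 and 7.5 are fitted values and not measured folds. XAGE1A differed most between mock clones, with -0.33, -4.13 and -6.48, against 4.85, 3.40 and 3.71 after treatment. The GAGE7 call was lost with slide as a block (8.76, adjusted p = 0.0511).

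Genes detected on all 6 arrays give folds measured on both sides. PAGE2B, a cancer-testis antigen of the X chromosome, was at -2.62, -3.85 and -3.86 in mock and at 5.21, 3.85 and 4.23 in treated clones 1 to 3, a log2 change of 7.87 (SE 0.48, adjusted p = 0.00097). TKTL1, a transketolase-like enzyme gene of the X chromosome, rose from -3.15, -3.40 and -3.74 to 4.83, 2.92 and 2.75, a change of 6.93 (SE 0.56, adjusted p = 0.00217). Treated clone 1 was the highest for both genes, and no treated value came near a mock value. PNMA5 rose by 6.41 (SE 0.46) and NEFH, the heavy neurofilament subunit, by 5.89 (SE 0.43), although a dimmer NEFH probe gave 3.27 and was not called (adjusted p = 0.0664). VCX2 (5.54) and GAGE2B (5.52) also rose, but their calls were lost with slide as a block, where the changes were 5.98 and 5.43 (adjusted p = 0.0551 and 0.059). GPX1, the cytosolic glutathione peroxidase, stood at -2.24, -2.93 and -2.68 in mock and at 2.72, 2.23 and 2.08 in treated clones. Its log2 change of 4.96 (SE 0.26, adjusted p = 0.000679) was among the most even across clones, and a second GPX1 probe, undetected in mock clones, gave a fitted 6.02. SAP25, a component of the SIN3 corepressor complex, moved from -0.24, -0.07 and 0.58 to 5.65, 4.84 and 5.16, a change of 5.13 (SE 0.31, adjusted p = 0.000939). ECHDC2 (4.25) and VAMP8, a vesicle SNARE (4.08), completed the 10, and ECHDC2 lost its call on blocking for slide (adjusted p = 0.0501).

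**Figure D2:**
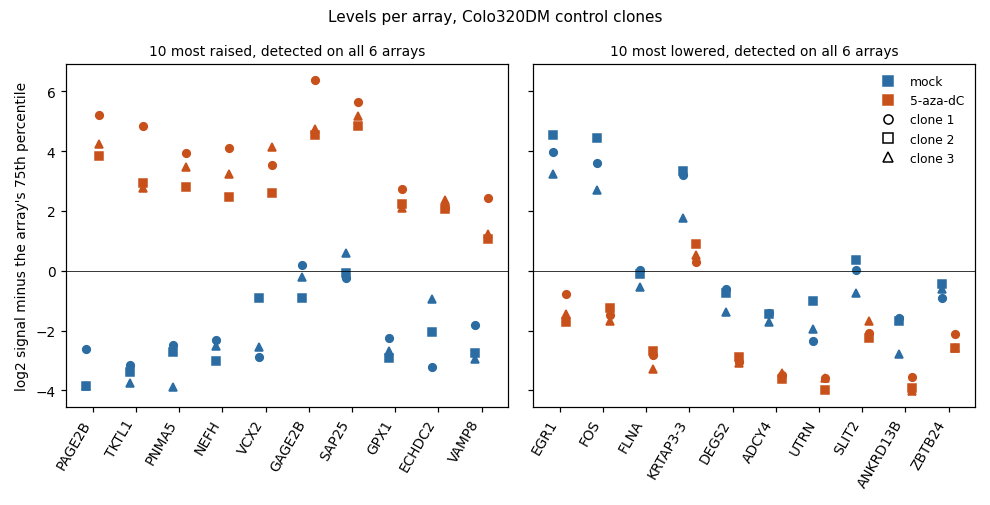
Log2 signal minus the 75th percentile of the array for the 10 most raised and the 10 most lowered genes among those detected on all 6 arrays, with 1 point per array, colour for treatment and shape for clone. In each of the 20 genes the treated points lie wholly on 1 side of the mock points, from PAGE2B at 3.85 to 5.21 against -3.86 to -2.62 to ZBTB24 at -2.58 to -2.12 against -0.90 to -0.43.

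Cancer-testis antigens of the X chromosome held many of the most raised genes. Of 54 on the array 36 could be tested. Of the 36, 16 were called higher (44.4%, against 4.61% over all 14005 genes tested) and 0 lower. The median log2 change of the 36 was 3.68, against 0.01 over all genes. Because 8 of the 36 had no mock signal and could pass only through the treated arrays, the 16 members detected on all 6 arrays are given too. Of these 3 (18.8%, against 2.16% over all genes so detected) were called higher, namely PAGE2B, GAGE2B and VCX2, and the median was 0.31. Among the undetected, CT45A5 rose at least 38.0-fold, CT45A1 at least 35.5-fold, MAGEB1 at least 16.9-fold, MAGEC2 at least 12.7-fold, SSX4B at least 12.6-fold and SSX1 at least 7.98-fold. MAGEB1, for example, lay between -5.04 and -4.94 in mock clones and at -0.03, -1.47 and -0.41 after treatment. Treated clone 1 was the highest for MAGEB1, MAGEC2, SSX1, CT45A1 and CT45A5. The families hold near-identical copies, and the copy a probe reads is uncertain. The fit blocked on slide called 6 of the 36 higher, and that with the replicate block 18. Both RHOX genes tested were raised, RHOXF1 by 5.01 (SE 0.62, adjusted p = 0.00923), and the RHOXF1 call was lost on blocking for slide (adjusted p = 0.0604).

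Other genes of the germline and of meiosis, outside the X-linked cancer-testis list and autosomal except for CCNB3, were raised as well. Of 81 on the array 45 were tested, with 19 called higher (42.2%, against 4.61% over all genes) and 0 lower and a median change of 1.39. Of the 26 detected on all 6 arrays, 4 (15.4%, against 2.16% over all genes so detected) were called higher, and the median was 0.46. The 4 were ADAD2, PIWIL2, REC8 and the X-linked CCNB3. The piRNA pathway silences transposons in germ cells, and some of the 19 act in it. TDRD1 rose at least 20.7-fold, TDRD12 at least 12.9-fold and TDRD9 at least 7.66-fold, and their treated levels were all above their mock levels. The Argonaute gene PIWIL2, detected throughout, was at -3.77, -3.74 and -3.48 in mock and -1.43, -1.71 and -1.45 in treated clones, a change of 2.13 (SE 0.17, adjusted p = 0.00217). MAEL rose by a fitted 5.61 from a level detected on 1 mock array, and HENMT1, which methylates piRNAs, by 4.11 from a level detected on 2. Meiotic chromosome genes were also among them. HORMAD1, of the chromosome axis, rose at least 14.3-fold and SYCP3, of the synaptonemal complex, at least 4.37-fold. REC8, the meiotic cohesin subunit, was already expressed at -0.41, -0.43 and -1.05 in mock clones and reached 1.58, 1.12 and 1.53, a change of 2.04 (SE 0.25, adjusted p = 0.00843). DAZL, an RNA-binding protein of germ cells, rose at least 9.11-fold and CTCFL, the testis paralogue of CTCF, at least 5.05-fold. Blocked on slide, 13 of the 45 were called higher. Members of this and the other lists were chosen with earlier results of these data known, so that their shares are descriptions only.

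**Figure D3:**
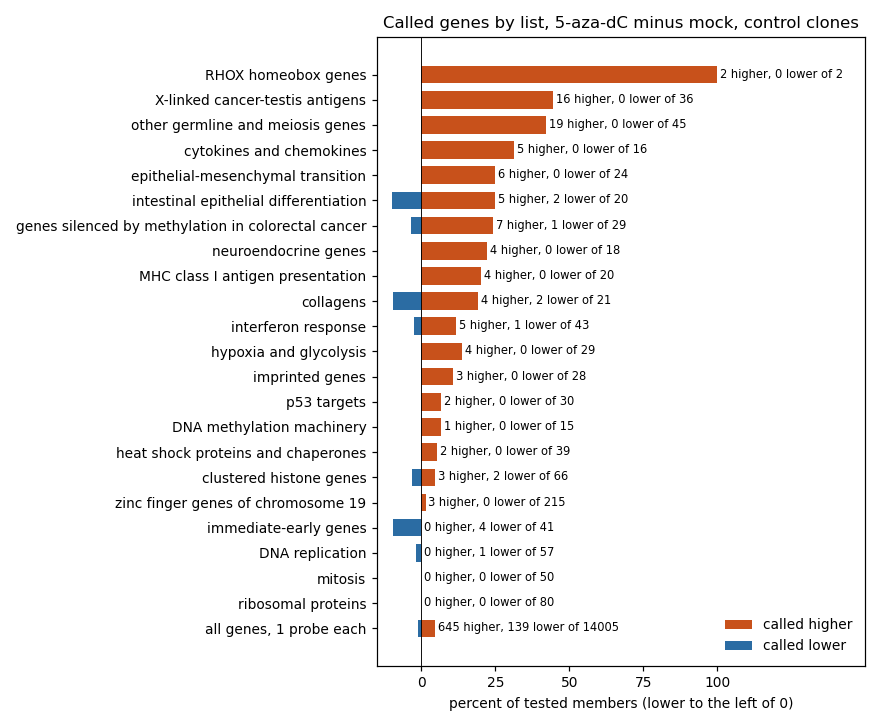
Percent of tested members called higher (right of 0) or lower (left of 0) after 5-aza-dC in 22 gene lists and over all genes at 1 probe each, with the counts printed beside the bars. The RHOX genes (2 of 2), the X-linked cancer-testis antigens (16 of 36) and the other germline genes (19 of 45) lie furthest to the right, and all genes give 645 higher and 139 lower of 14005.

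Most tested genes known to be silenced by methylation in colorectal cancer had a positive change, and a minority were called. Of 61 on the array 29 were tested, 7 (24.1%) were called higher and 1 (3.45%) lower, against 4.61% and 0.993% over all genes. Changes were positive in 22 of the 29 (75.9%), against 51.1% over all genes. The median was 0.65, against 0.01 over all genes. Of the 25 detected on all 6 arrays 4 were called higher and 1 lower. TMEFF2, a transmembrane protein with follistatin domains, rose at least 21.7-fold and SOX17, a transcription factor that opposes Wnt signalling, at least 12.5-fold. The secreted Wnt inhibitor WIF1 was measurable from the start, at -0.08, -1.03 and -1.27 in mock and at 3.16, 2.48 and 1.91 in treated clones. Its change of 3.31 (SE 0.43, adjusted p = 0.011) was close to that of NDRG4 (3.04, SE 0.48, adjusted p = 0.0216). THBD, DKK3 and RASSF5 were the other raised members. APC, the tumour suppressor of the Wnt pathway, fell by 1.16 (adjusted p = 0.0333), a call lost with the replicate block (adjusted p = 0.06). In the fit blocked on slide, SOX17 and TMEFF2 were the 2 members still called.

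A minority of interferon response genes were called, while most had a positive change. Of 43 tested, 5 (11.6%) were called higher and 1 (2.33%) lower, against 4.61% and 0.993% over all genes. A positive change was seen in 33 (76.7%), against 51.1% over all genes. The median was 0.49 (0.53 with slide as a block), against 0.01 over all genes. Of the 34 members detected on all 6 arrays 3 (8.82%) were called higher and 1 (2.94%) lower, against 2.16% and 0.927% over all genes so detected. BST2, the surface protein that tethers virions, was at -4.36, -5.26 and -6.46 in mock clones, with 1 array well above background, and at -1.57, -1.33 and -1.38 after treatment (log2 change 3.93, SE 0.50, adjusted p = 0.0104). IRF7, a transcription factor of the interferon response, rose at least 5.51-fold, and DHX58, a regulator of RNA sensing, by 1.74 (SE 0.21, adjusted p = 0.00834). IFIT2 (1.45) and IFI6 (1.08) were the other 2 raised members, and IFIT2 lost its call with the replicate block (adjusted p = 0.0606). IFIH1, which encodes the RNA sensor MDA5, was at 3.45, 3.29 and 3.18 in mock and at 2.35, 2.08 and 2.27 in treated clones and thus fell by 1.07 (SE 0.17, adjusted p = 0.0198). The changes of ISG15 (0.27, adjusted p = 0.448) and IFIT1 (0.12, adjusted p = 0.629) did not pass the test. Blocking on slide gave 3 called members, namely BST2 (5.03, adjusted p = 0.0128), IFI44 (1.73, adjusted p = 0.0291) and LGALS3BP (2.23, adjusted p = 0.0464), and IRF7, DHX58, IFIT2, IFI6 and IFIH1 were not.

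Class I antigen presentation was represented by 20 genes, all tested. Of the 20, 4 (20.0%) were called higher and 0 lower, against 4.61% and 0.993% over all genes. Of the 19 detected on all 6 arrays 3 (15.8%) were called higher, against 2.16% over all genes so detected. HLA-B was at 0.32, 0.53 and 1.04 in mock and at 3.12, 3.88 and 4.23 in treated clones, a change of 3.11 (SE 0.34, adjusted p = 0.00618). HLA-C went from 0.91, 0.92 and 1.85 to 3.92, 4.70 and 5.06, a change of 3.33 (SE 0.39, adjusted p = 0.00771). In both genes clone 3 was the highest before and after treatment, and HLA genes share sequence that a probe may not separate. PSMB8, an immunoproteasome subunit, rose at least 11.7-fold and HLA-E by 0.90, the latter not called with the replicate block (adjusted p = 0.0702). None of the 4 was called with slide as a block (HLA-B 2.70, adjusted p = 0.0646).

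Genes of the gut epithelium and of neuroendocrine cells were raised in part. KRT19, an epithelial keratin, rose at least 5.92-fold, the tight junction gene CLDN3 by 3.52 (SE 0.27, adjusted p = 0.00163) from a level detected on 1 mock array, and KRT20, a keratin of differentiated gut epithelium, from -1.78, -2.27 and -1.80 to -0.86, -0.51 and -0.49. In total 5 of 20 tested genes of intestinal epithelial differentiation were higher, where all genes gave 4.61%, but among members detected on all 6 arrays it was 1 of 12 with a median of -0.01, against 2.16% over all genes so detected. They included MUC13 (1.49). The secreted trefoil peptides were lower, TFF1 by a fitted -1.18 with 1 treated array above background and TFF2 at least 1.44-fold with none. CLDN3 and TFF2 were the 2 called with slide as a block. Of 18 neuroendocrine genes 4 were higher (1 of the 9 detected on all 6 arrays), namely the granins CHGA and CHGB, the neuronal enolase ENO2 and the hormone precursor POMC. CHGA differed widely between clones, at -3.61, -7.15 and -6.52 in mock and 1.68, -0.82 and -0.19 in treated clones, and none of the 4 was called with slide as a block. Among 24 genes of the epithelial-mesenchymal transition 6 were higher (2 of the 18 detected on all 6 arrays, with a median of 0.00). They included both mesenchymal genes (TWIST1, MMP2, CDH2 and CNN1) and epithelial genes (CLDN3 and the splicing factor ESRP2). Of 16 cytokine and chemokine genes 5 were higher (1 of the 9 detected on all 6 arrays), with CXCL14 at least 8.78-fold and IL32 by a fitted 3.99 from a level detected on 1 mock array. None of the 5 was called on blocking for slide.

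Single genes of several other families were raised. SLC16A3, a lactate exporter, rose by 6.21 (SE 0.67, adjusted p = 0.00595; detected on 2 mock arrays) and its relative SLC16A5 at least 9.90-fold, among 12 higher (5.80%) and 2 lower (0.966%) of 207 solute carriers tested, shares near the 4.61% and 0.993% over all genes. The imprinted gene MEST rose at least 11.9-fold, and NNAT (1.67) and INPP5F (1.07) by less, INPP5F with no call under the replicate block (adjusted p = 0.0575). Neither NNAT nor INPP5F was called with slide as a block (adjusted p = 0.198 and 0.145). Histone genes gave 3 higher (4.55%) and 2 lower (3.03%) of 66 tested, against 4.61% and 0.993% over all genes. Among the 60 detected on all 6 arrays 0 were higher and 2 lower (3.33%, against 0.927% over all genes so detected). The linker histone HIST1H1A rose at least 34.8-fold, HIST1H1T, the testis-specific linker histone, at least 1.81-fold, and HIST1H2AA by a fitted 4.55 from a level detected on 1 mock array. HIST1H3F (-1.51) and HIST1H3D (-1.40), which are expressed in S phase, fell, and the median of the 66 histone genes tested was -0.36. The 3 raised histone genes were called with slide as a block and the 2 lowered were not, and HIST1H3D was not called with the replicate block either (adjusted p = 0.0501). PARP10, a mono-ADP-ribosyltransferase, was at -1.23, -1.11 and -1.04 in mock and at 1.18, 1.35 and 1.18 in treated clones, a change of 2.36 (SE 0.15, adjusted p = 0.00108). Of 1538 uncharacterised XLOC transcripts tested 66 were higher (4.29%) and 32 lower (2.08%), near the shares over all probes. The most raised, XLOC_l2_015849 (hg19 chromosome X, 152661129 to 152661188), rose from -6.32, -6.53 and -6.24 to 4.86, 3.01 and 3.71, at least 381-fold (adjusted p = 0.000387).

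The lowered side was led by immediate-early transcription factors. EGR1, a zinc finger factor induced by growth signals, was at 3.97, 4.54 and 3.23 in mock clones 1 to 3 and at -0.79, -1.70 and -1.44 after 5-aza-dC. The groups lay far apart, and the change of -5.22 (SE 0.40, adjusted p = 0.00163) corresponds to a 37.3-fold lower signal. FOS, an AP-1 subunit, was at 3.59, 4.42 and 2.71 in mock and at -1.48, -1.23 and -1.68 in treated clones, a change of -5.03 (SE 0.43, adjusted p = 0.00246). Both were also called with slide as a block (-4.54, adjusted p = 0.0194, and -4.17, adjusted p = 0.0174), and the clone 3 pair gave -4.66 and -4.39. Mock clone 3 was the lowest mock array for both genes. FOSB followed with 0.81, 1.97 and -1.33 in mock and -3.19, -3.88 and -4.54 in treated clones (-4.35, adjusted p = 0.0395), with 2 treated arrays above background, and its call was lost on blocking for slide (adjusted p = 0.156). JUN fell by 1.24 (SE 0.22, adjusted p = 0.0298), and lost its call with the replicate block (adjusted p = 0.0512) and on blocking for slide (adjusted p = 0.144). The other 37 immediate-early genes tested were not called, so that 9.76% of the 41 were lower, against 0.993% over all genes. The median of all 41 was -0.11, or 0.03 with slide as a block. JUNB (-0.74, adjusted p = 0.174), DUSP1 (-0.77, adjusted p = 0.162), IER2 (0.00, adjusted p = 0.988) and FOSL1 (1.03, adjusted p = 0.0672) did not pass the test.

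EGR1 and FOS were set against the knockdown clones, because there the same treatment left them at -2.69 to -1.81 (EGR1) and -2.91 to -2.70 (FOS). The interaction of clone type and treatment was called for EGR1 (-5.24, SE 0.51, adjusted p = 0.00894) and for FOS (-4.64, SE 0.55, adjusted p = 0.0323), and with slide as a block it was -4.98 (adjusted p = 0.00584) and -4.45 (adjusted p = 0.0261). Neither was called with the replicate block (adjusted p = 0.181 for EGR1 and 0.0801 for FOS). The mock arrays differed between the clone types, as mock knockdown clones were at -2.47 to -2.16 for EGR1 and at -2.90 to -1.89 for FOS, below every treated control array. FOSB had a like difference of -5.44 that was not called (adjusted p = 0.251). Over 27281 probes 9 interactions were called, 15 with slide as a block.

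Other lowered genes fell by less. FLNA, the actin crosslinker filamin A of the X chromosome, was at 0.03, -0.10 and -0.54 in mock and -2.80, -2.69 and -3.30 in treated clones by one probe (-2.72, SE 0.24, adjusted p = 0.003), whereas a brighter FLNA probe gave 0.00 (adjusted p = 0.993). No second probe was called for KIAA1671, UTRN, DUX4, PREX2, ANKRD13B or ZBTB24. The second probes of PREX2 (-0.72), ANKRD13B (-0.59) and ZBTB24 (-1.05, adjusted p = 0.0787) were lower too, by less. Further probes of KIAA1671, UTRN and DUX4 had changes of both signs, with the brightest at 0.22, 0.16 and 0.53. ADCY4, an adenylyl cyclase, fell evenly from -1.41, -1.44 and -1.70 to -3.49, -3.61 and -3.42 (-1.99, SE 0.16, adjusted p = 0.00223). DEGS2, a sphingolipid hydroxylase, fell by 2.09 (SE 0.24, adjusted p = 0.00705). ADCY4 and DEGS2 were called with slide as a block, and ZBTB24 (-1.78), a zinc finger protein needed for normal DNA methylation, was not (adjusted p = 0.0628). SLIT2 (-1.87) and UTRN (-1.96) were not called with the replicate block (adjusted p = 0.0635 and 0.0614) nor with slide as a block. COL16A1, a collagen, was detected in mock clones only and was at least 2.94-fold lower, and LCE3B, a cornified envelope gene, at least 2.29-fold. Genes of mitosis (0 of 50 called, 12 of 50 with a positive change) and of DNA replication (1 of 57 called, POLE, -0.79, with replicate block adjusted p = 0.0774) had medians of -0.21 and -0.24. Ribosomal protein genes (0 of 80 called) had a median of 0.14 that turned to -0.29 with slide as a block.

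The genes that write, read and erase DNA methylation are those closest to the drug's target. Of the 15 tested, DNMT3B, a de novo methyltransferase, was the 1 called by its brightest probe. It was at 0.59, 0.92 and 0.77 in mock and at 2.13, 2.03 and 1.85 in treated clones, a rise of 1.24 (SE 0.17, adjusted p = 0.0134), with 1.23 and adjusted p = 0.072 with slide as a block. DNMT1, the maintenance methyltransferase, shows how slide and treatment interleave. It was at 2.66 and 2.53 in mock clones 1 and 2 on slide 1, at 4.48 in mock clone 3 on slide 2, and at 3.93, 3.96 and 4.15 in the treated clones on slide 2. The pooled change was 0.79 (adjusted p = 0.352) and that with slide as a block -0.46 (adjusted p = 0.27), so that its direction was not settled. Without mock clone 3 DNMT1 was called higher (1.42, adjusted p = 0.00419), as it was without both arrays of clone 3 (1.35, adjusted p = 0.0171). Both fits set mock arrays of slide 1 against treated arrays of slide 2, so that slide and treatment cannot be told apart in them. A dimmer DNMT3A probe was also called (1.39, adjusted p = 0.0485), whereas the brightest gave 0.44 (adjusted p = 0.496). MBD3, a subunit of the NuRD complex, was lower by 1.47 in the pooled fit and by 0.70 with slide as a block, and did not pass the test (adjusted p = 0.0641 and 0.141). It passed on the array median scale (-1.72, adjusted p = 0.0269) and in the fits of all 12 arrays (adjusted p = 0.0318, and 0.035 with slide as a block). MBD3 also passed without mock clone 3 (-1.85, adjusted p = 0.00291) and without both arrays of clone 3 (-1.87, adjusted p = 0.0145). In these last fits slide and treatment again cannot be told apart. UHRF1 (-0.17, adjusted p = 0.579), TET1 (-0.30, adjusted p = 0.337) and TET2 (-0.17, adjusted p = 0.674) did not pass the test in the pooled fit either. The 12 tested genes of decitabine uptake and metabolism, such as the kinase DCK (-0.40, adjusted p = 0.263), held no call.

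By chromosome, the X had the highest share of called probes in both directions. Of 990 probes tested on the X, 96 were higher (9.70%) and 30 lower (3.03%). On the autosomes the share of higher probes ran from 1.76% on chromosome 18 to 5.99% on chromosome 14. Blocked on slide, the X had 5.15% higher and chromosome 14, the next, 2.85%. This is a description, since genes of one family lie beside each other and are not independent.

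**Figure D4:**
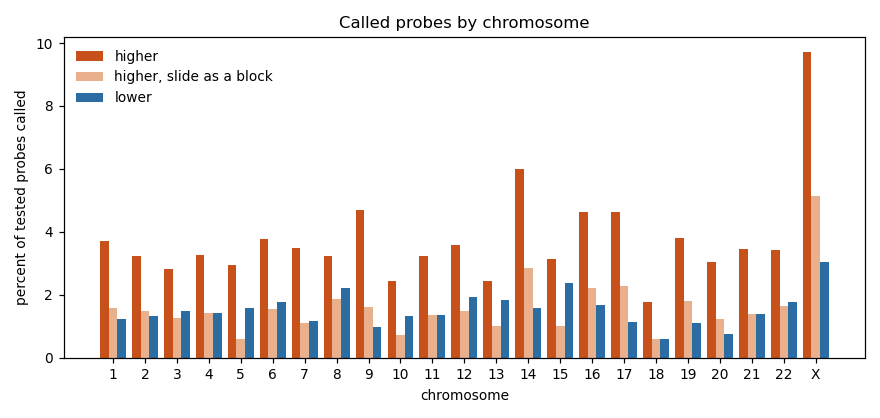
Percent of tested probes called higher, called higher with slide as a block and called lower, for the autosomes in order and the X. The X bar of 9.70% is the tallest, followed by chromosome 14 at 5.99%.

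Promoter sequence was compared between called and other genes, using the 300-base RefSeq promoters of 11242 tested genes. Promoters of 480 raised genes held a median of 20 CpGs, those of 90 lowered genes 23 and those of 10672 genes not called 26. The observed to expected ratio had medians of 0.68, 0.79 and 0.83, while the median GC content was similar at 64.2%, 64.5% and 65.0%. Raised genes undetected in mock clones had a median of 16 CpGs (n = 195) and raised genes detected on all 6 arrays 23.5 (n = 196). The former could be tested only through the treated arrays, and genes not called were not split by mock level. A lower CpG count of raised genes therefore cannot be told apart from a low mock level. At least 10 CpGs were found in 73.8% of the promoters of raised genes and in 86.3% of those not called. The E-box CACGTG, a palindrome that reads the same on both strands, was in 10.2% of raised and 10.2% of all tested promoters. The cAMP response element TGACGTCA, also a palindrome, was in 2.71% and 3.17%. Such matches are descriptions of the letters and not binding sites.

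**Figure D5:**
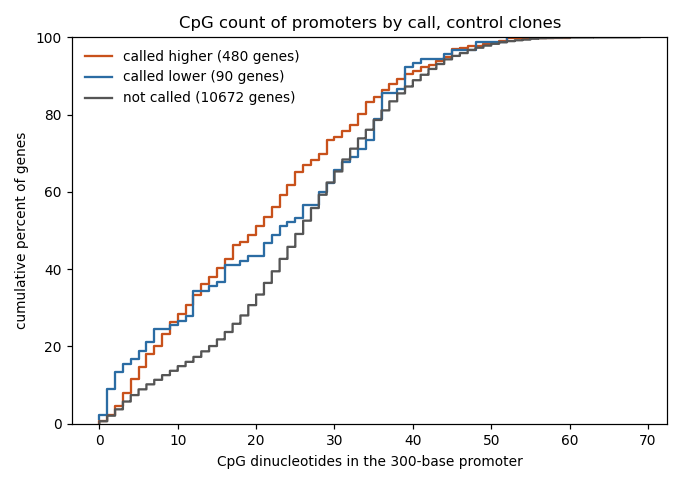
Cumulative percent of genes by the number of CpG dinucleotides in the 300-base promoter, for genes called higher, called lower and not called. The curve of raised genes reaches its middle at 20 CpGs and that of genes not called at 26.

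The knockdown clones gave a check on slide that shares no array with the comparison above. On slide 1, knockdown clones 1 and 3 after 5-aza-dC can be set against the 3 mock knockdown clones. Probes were tested there if well above background on 3 or more of the 6 knockdown arrays. Of the 941 raised probes 802 were so tested, and 775 of these were higher, with a median change of 2.28. Over all 23644 probes tested in both, 38.9% were higher. The 2 shares are not alike. A probe dark in mock knockdown clones could be tested only through treated arrays, which favours a rise among the 802. Of 359 lowered probes, 334 were lower, with a median of -0.47, against 61.1% of all probes. The fit of all 6 knockdown arrays called 336 of the 802 raised and 3 of the 359 lowered probes in the same direction. That fit had no slide block, and treated knockdown clone 2 alone lay on slide 2. The share called over all probes was not counted for it, so the 2 counts are a description only. RHOXF2 changed by 10.06 and PAGE2B by 6.86 on slide 1, against 11.05 and 7.87 in control clones, and FLNA by -0.79 against -2.72. EGR1 changed by 0.20 and FOS by -0.44 there, against -5.22 and -5.03.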

How the data were processed

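RNA of 3 control clones, each mock-treated and treated with 5-aza-dC, was measured on 6 of 12 one-colour Agilent SurePrint G3 arrays. In the deposited scanner output each spot has a Cy3 intensity. Feature Extraction 10.7.3.1 had corrected it for background and detrended it within the array, per the file headers, and no scaling across arrays was applied by the authors in these files. The authors analysed the data in GeneSpring with t tests and Benjamini-Hochberg correction. A series-wide table that the authors deposited repeats this intensity to within 0.497%.

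Spots of control probes were dropped, as were outlier-marked spots. Log2 values of spots of one probe were averaged, and the 75th percentile over the 58717 non-control spots of an array was subtracted. A probe counted as well above background where at least 50% of its spots were, and 112 probes lacked a value on at least 1 array. Fits used limma 3.58.1 in R 4.3.3 (lmFit and eBayes, two-sided, Benjamini-Hochberg over all probes tested, threshold 0.05), on the 6 arrays with no block. The interaction was fitted on all 12 arrays. The fit was tested on simulated data. Tables were made in Python 3.11.15 with pandas 2.3.3 and numpy 2.4.6, and figures with matplotlib 3.10.9. The number of arrays, 3 per group, limits the precision.

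The same clone number was taken as the same clone. Deviations from the group means correlated at 0.393, 0.268 and 0.292 across probes for equal numbers and at -0.304 to -0.0771 for unequal ones, so the replicate block pairs the arrays. It is given beside a result where it changes the call.

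Genes named were the 10 raised and 10 lowered with the largest change among called probes that did not overlap between groups, were detected on every array of the brighter group and had a symbol, the same among probes detected on all 6 arrays, up to 3 called members of each of 43 gene lists, and the tested genes of the DNA methylation machinery. Further called members of a list, and members named as not passing the test, were chosen after their values were seen. Members and lists were chosen with earlier results of these data known. Lists use the brightest probe of a gene. Symbols are those of the files, and 31412 probes were matched to RefSeq. Probe positions are on hg19 and promoters on GRCh38.p14. Probes of the X-inactivation centre and the Y chromosome, and some genes that the naming rule gave, were counted over all probes and in the lists but are not reported here. Alternatives were other normalizations, filters, blocks, arrays and the methods' t-test. The 75th percentile over probes and leaving out both arrays of a clone were chosen after seeing the data.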

Additional observations from a re-analysis of the deposited data

Results flagged for a closer look

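The 5-aza-dC change of 3 named genes differed between the clone types in the test of the interaction of clone type and treatment. EGR1 changed by -5.24 (SE 0.51, adjusted p = 0.00894) and FOS by -4.64 (SE 0.55, adjusted p = 0.0323) more in control than in knockdown clones, as described above with their mock levels. SOX11, a neural transcription factor, was undetected in all mock control clones (-7.03 to -6.26) and reached -1.53, -1.20 and -2.85 after 5-aza-dC, at least 7.23-fold higher (adjusted p = 0.0038, and 0.0511 with slide as a block). It was not well above background on any of the 6 knockdown arrays, and its interaction was 4.87 (SE 0.59, adjusted p = 0.0335), which rests on levels at the floor. None of the 3 interactions was called with the replicate block (adjusted p = 0.181 for EGR1, 0.0801 for FOS and 0.314 for SOX11).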

How the results depend on the processing

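All 1309 called probes kept their direction in every alternative on the 6 arrays or fewer that tested them, and with all 12 arrays and slide as a block 1305 of 1309 did. As the groups did not overlap at any called probe, blocking these arrays or leaving some out could not have reversed a sign. In those alternatives the kept direction is therefore no check. The count of called probes was 3607 with the array median as the scale, 442 among probes detected on all 6 arrays, 477 with slide as a block, 242 on slide 2 alone and 316 by the methods' t-test. With the replicate block and slide together it was 0 by limma (3790 at an unadjusted p under 0.05), with 1 residual degree of freedom. The replicate block alone gave 1415 (1096 higher and 319 lower, 1003 of them among the 1309), and kept 92 of the 97 calls tallied under the naming rule, of which not every gene is printed. It ended the calls of UTRN, SLIT2, ADM, INPP5F and POLE among these, and of APC, IFIT2, HLA-E, HIST1H3D, JUN, COL24A1 and P4HA2 among other genes named in the text. Leaving out 1 array gave 500 to 8939 called probes. The 8939 came without mock clone 3, which left mock and treated arrays on different slides, and every other omission gave 690 or fewer. Without both arrays of clone 1, 2 or 3 the counts were 390, 212 and 6141. With slide as a block 44 of these 97 genes kept their call, and 35 did on slide 2 alone. The interaction was called for 15 probes with slide as a block and for 2 with the replicate block, against 9, and the block ended the calls of EGR1, FOS and SOX11. The cause of these shifts was not tested, other than fewer probes or arrays where the alternative removes them. Reversals were all among methylation genes that had not been called. With slide as a block and on slide 2 alone these were DNMT1 (-0.46), DNMT3A (-0.35), TET2 (0.29), TDG (-0.06) and ZBTB4 (-0.05). With the replicate block and slide together they were DNMT1 (-0.33), DNMT3A (-0.13), TET2 (0.33), TDG (-0.14), ZBTB33 (0.14) and ZBTB4 (-0.09), and with all 12 arrays and slide as a block DNMT1 (-0.34), DNMT3A (-0.51), TET2 (0.06), TDG (-0.17), MBD4 (0.07), ZBTB33 (0.06) and ZBTB4 (-0.01). The array median reversed TDG (-0.11), MBD1 (-0.24) and ZBTB4 (-0.11), and normexp reversed MBD1 (-0.03). Leaving out 1 array gave TET2 -0.41 to 0.02 and MBD1 -0.19 to 0.18, and without both arrays of a clone MBD1 was -0.02 or -0.12 and MBD4 0.00. Signal over background limits every value near the floor, where only bounds are given.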

Other observations

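Beyond the groups above, some families changed little as a whole. Of 215 zinc finger genes of chromosome 19 tested, 3 were higher (ZNF542 at least 6.69-fold, ZNF426 at least 5.38-fold and ZNF528 at least 2.66-fold), all 3 undetected in mock clones, and the median change was 0.02. Of 30 p53 targets, TP53INP1 (at least 2.55-fold) and GDF15 (1.66) were higher (6.67%, near the 4.61% over all genes), with a median of 0.13. Neither was called with slide as a block (adjusted p = 0.0669 and 0.165). Of 11 metallothioneins MT1M alone was called (at least 4.93-fold higher), and 3 were with the replicate block. Among 29 genes of hypoxia and glycolysis ENO2 (3.49), ANGPTL4 (3.15), ADM (2.82) and P4HA2 (1.84) were higher (13.8%, against 4.61% over all genes). None of these 4 was called on blocking for slide, and the replicate block ended the calls of ADM (adjusted p = 0.0509) and P4HA2 (adjusted p = 0.0624).

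Structural genes moved in both directions. Of 21 collagens tested 4 were higher, led by COL8A2 (a fitted 4.13, detected on 1 mock array) and COL9A3 (3.92, detected on 2), and COL16A1 and COL24A1 (-1.09, adjusted p = 0.0702 with the replicate block) were lower. Of 22 keratins KRT23 (at least 8.17-fold), KRT19 and KRT20 were higher (13.6%, against 4.61% over all genes) and 0 lower. Among the 14 detected on all 6 arrays 1 was higher. KRT23 alone was called with slide as a block, and 7 keratins were higher with the replicate block. HYAL1, a hyaluronidase, rose at least 4.95-fold, whereas HAS2, a hyaluronan synthase, was detected on all mock arrays and 1 treated array (log2 change -2.24, adjusted p = 0.0191, and -1.53 with adjusted p = 0.0677 with slide as a block). FOXJ1, the regulator of motile cilia, rose at least 8.12-fold (adjusted p = 0.00155, and 0.0174 with slide as a block).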
